A study of Mus musculus with 4 samples.

Results

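The genes described here are 10 transcription factors and markers of adipocyte fate: Pparg, Cebpa, Cebpb, Cebpd, Zfp423, Lpl, Cd36, Fabp4, Plin2 and Adipoq. They were read by 17 probe sets, which are all those that carry 1 of these symbols and no other, out of 45037 probe sets tested. Signal was measured in ATDC5, a mouse chondrogenic cell line, after 5 days of differentiation. In both groups a 27-mer duplex was transfected at 30 nM by lipofection, and differentiation medium was given from 16 h on. The 2 control arrays came from cells given a universal scrambled duplex, and the 2 knockdown arrays from cells given a duplex against Chadl, the gene of chondroadherin-like. The labels name 1 effective duplex, so every knockdown value rests on 1 sequence, given there as acaagguagagaaacaaagagacca. This strand has 25 bases, although the labels call the duplexes 27-mers. The labels call the arrays of a group biological replicates without saying that cultures were separate, so p-values measure only how these samples vary, and that variation may be technical.

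Adipocytes, chondrocytes and osteoblasts arise from related mesenchymal progenitors. In the usual sequence of adipocyte differentiation, C/EBPβ and C/EBPδ appear early and induce PPARγ and C/EBPα, which then maintain each other and switch on genes of lipid uptake, lipid storage and adipokine secretion. ZFP423 marks commitment to the preadipocyte state. Several of these genes also work outside fat: C/EBPβ and C/EBPδ are induced by inflammatory cytokines, and perilipin 2 coats lipid droplets in most cell types.

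Stretches upstream of the start sites of 4 of the genes are shown because the genes differ in level and in their knockdown values: Cebpb and Plin2 gave bright signals that differed between arrays, Pparg was moderate and nearly level, and Adipoq was dim. Sequences are from RefSeq on build GRCm38.p6, run 5′ to 3′ on the gene's strand and cover the 250 bases before the start. By symbol 7 of the 10 genes matched, with 10 start sites in all. Capitals mark letters of a searched motif on either strand, and no 2 motif matches overlap in the 4 stretches.
Cebpb, chr2:167688665-167688914, + strand: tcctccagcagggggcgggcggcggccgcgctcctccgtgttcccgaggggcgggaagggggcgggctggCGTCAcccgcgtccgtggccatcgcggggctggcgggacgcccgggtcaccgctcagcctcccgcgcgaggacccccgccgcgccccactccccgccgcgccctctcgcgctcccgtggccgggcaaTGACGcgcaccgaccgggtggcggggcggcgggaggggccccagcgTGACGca
Plin2, chr4:86670060-86670309, - strand: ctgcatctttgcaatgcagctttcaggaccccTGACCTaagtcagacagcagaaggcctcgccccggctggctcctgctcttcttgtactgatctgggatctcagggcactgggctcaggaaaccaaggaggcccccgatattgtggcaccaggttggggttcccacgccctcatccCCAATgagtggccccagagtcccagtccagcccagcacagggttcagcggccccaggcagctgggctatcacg
Pparg, the third start, chr6:115421816-115422065, + strand: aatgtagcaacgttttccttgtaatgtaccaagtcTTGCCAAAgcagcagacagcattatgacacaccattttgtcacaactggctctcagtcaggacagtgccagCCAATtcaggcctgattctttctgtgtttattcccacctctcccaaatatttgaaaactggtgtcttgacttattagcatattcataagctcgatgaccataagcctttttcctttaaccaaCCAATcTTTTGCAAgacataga
Adipoq, chr16:23146286-23146535, + strand: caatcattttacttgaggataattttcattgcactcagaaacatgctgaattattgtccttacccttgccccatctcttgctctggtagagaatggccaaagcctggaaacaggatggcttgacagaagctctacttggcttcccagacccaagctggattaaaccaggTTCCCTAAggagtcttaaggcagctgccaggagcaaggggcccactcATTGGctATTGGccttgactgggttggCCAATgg

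The motifs were TGACG, the core of the cAMP response element (CRE), TTNNGNAA for C/EBP factors, AGGTCA for nuclear receptors such as PPARγ, TATAAA and CCAAT. Over the 250 bases upstream of 32851 starts, 17.8% held the CRE core, 36.8% the C/EBP motif, 14.0% the nuclear receptor hexamer, 12.4% TATAAA and 33.8% CCAAT. Cebpb held 3 CRE cores and no other motif searched. Plin2 held 1 nuclear receptor hexamer and 1 CCAAT. The third of 3 Pparg starts, picked for printing after its matches were seen, held 2 C/EBP matches and 2 CCAAT. The other Pparg starts held no C/EBP match and 1 nuclear receptor hexamer each, and the second also 1 TATAAA and 1 CCAAT. Adipoq held 1 C/EBP match and 3 CCAAT. A match says only that these letters are present. The array reads Pparg with 1 probe set and gives no level per start.

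On the arrays, 5 of the 10 genes gave a signal at or above the median of all probe sets (4.24 on the log2 scale) and 5 a signal below it, by each gene's brightest probe set, against 61.6% of all genes at or above it by the same measure. Those above were Plin2, Cebpb, Lpl, Cebpd and Pparg, at percentiles 95.5, 92.6, 83.4, 79.9 and 65.9 of mean signal. Cebpa lay just below the median, at percentile 49.5. Zfp423 lay at percentile 18.8, Adipoq at 12.2, Cd36 at 11.1 and Fabp4 at 9.17, and the other probe sets of Cd36 and Fabp4 lay lower still. A percentile gives the brightness of a probe set and not the abundance of an RNA, since probe sets bind with different strength. Of 7 mature adipocyte markers measured, 3 were at or above the median (Pparg, the adipokine gene Retn and the insulin-responsive glucose transporter gene Slc2a4), and the hormone-sensitive lipase gene Lipe and the leptin gene Lep were below it. Macrophages and endothelium also use Fabp4, Cd36 or Lpl, and the marker lists of these cell types had 2 of 10 and 2 of 9 members at or above the median.

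**Figure D1:**
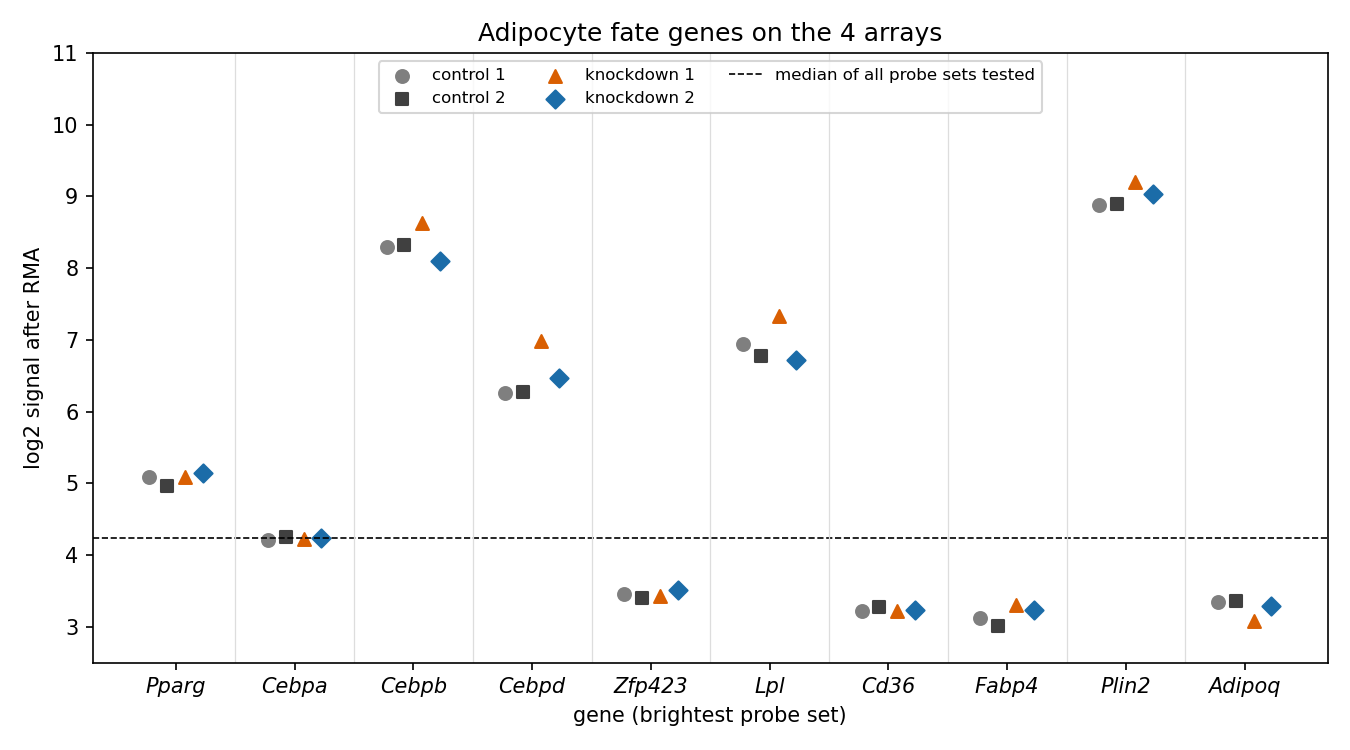
Log2 signal after RMA (vertical axis) of the brightest probe set of each of the 10 genes on the 4 arrays, with circles and squares for the controls, triangles for knockdown 1 and diamonds for knockdown 2. The dashed line is the median of all probe sets tested, 4.24. Plin2, Cebpb, Lpl, Cebpd and Pparg lie above it, and knockdown 1 is the highest array for Plin2, Cebpb, Lpl and Cebpd.

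The targeted gene was lower in the knockdown arrays: Chadl read 4.91 and 4.84 in the controls against 4.29 and 4.64 (log2 difference -0.41, SE 0.12, limma adjusted p = 0.608). Medians over all probe sets were 4.24 to 4.25 on every array. The SD over all probe sets of the difference between the knockdown arrays was 1.74 times that between the controls, and knockdown 1 stood further from the controls. Over 1.2-fold from the control mean were 6.32% of probe sets upward and 4.24% downward in knockdown 1, against 1.97% and 2.28% in knockdown 2. Over all probe sets 1 passed an adjusted p of 0.05 (0.00222%), a probe set of Ramp2, which encodes a receptor partner of adrenomedullin. With each gene read by its brightest probe set, 0 of 17097 genes passed, so this probe set was not the brightest of its gene.

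None of the 17 probe sets passed the test over all probe sets (limma, adjusted p of 0.05), and 3, all higher in knockdown, had an unadjusted p under 0.05, those of Cebpd, Plin2 and Fabp4. For comparison, 3.42% of all probe sets were higher and 3.83% lower at that p. No probe set of the 10 genes was lower at that p. For 6 of the 17 the knockdown arrays both exceeded the controls, against 18.6% of all probe sets, and for 2 both were below them, against 19.9%. The 6 were those of Cebpd, Plin2 and Pparg, 2 of Fabp4 and 1 of Cd36, and the 2 were that of Adipoq and the dimmest of Cebpb. The median difference over the 17 was 0.05, and that over all probe sets was -0.0018. By array that median was 0.07 for knockdown 1 and 0.05 for knockdown 2, but larger differences were not shared: in knockdown 1, 6 of the 17 were over 1.2-fold above the control mean and 1 (Adipoq) below, whereas in knockdown 2 none was above and 2 (1 each of Cebpb and Lpl) were below. The 6 above in knockdown 1 were 2 probe sets each of Cebpb and Lpl and those of Cebpd and Plin2. By brightest probe set this was 4 of the 10 genes, against 1239 of all 17097 genes. All 6 belonged to the 8 probe sets at or above the median signal, whose median difference was 0.37 for knockdown 1 and -0.09 for knockdown 2. Of all probe sets that bright, 7.31% were over 1.2-fold above in knockdown 1. The number of arrays, 2 in each group, limits the precision of all these values. In bulk RNA, a change in the number of cells of a type and a change of RNA per cell cannot be told apart.

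**Figure D2:**
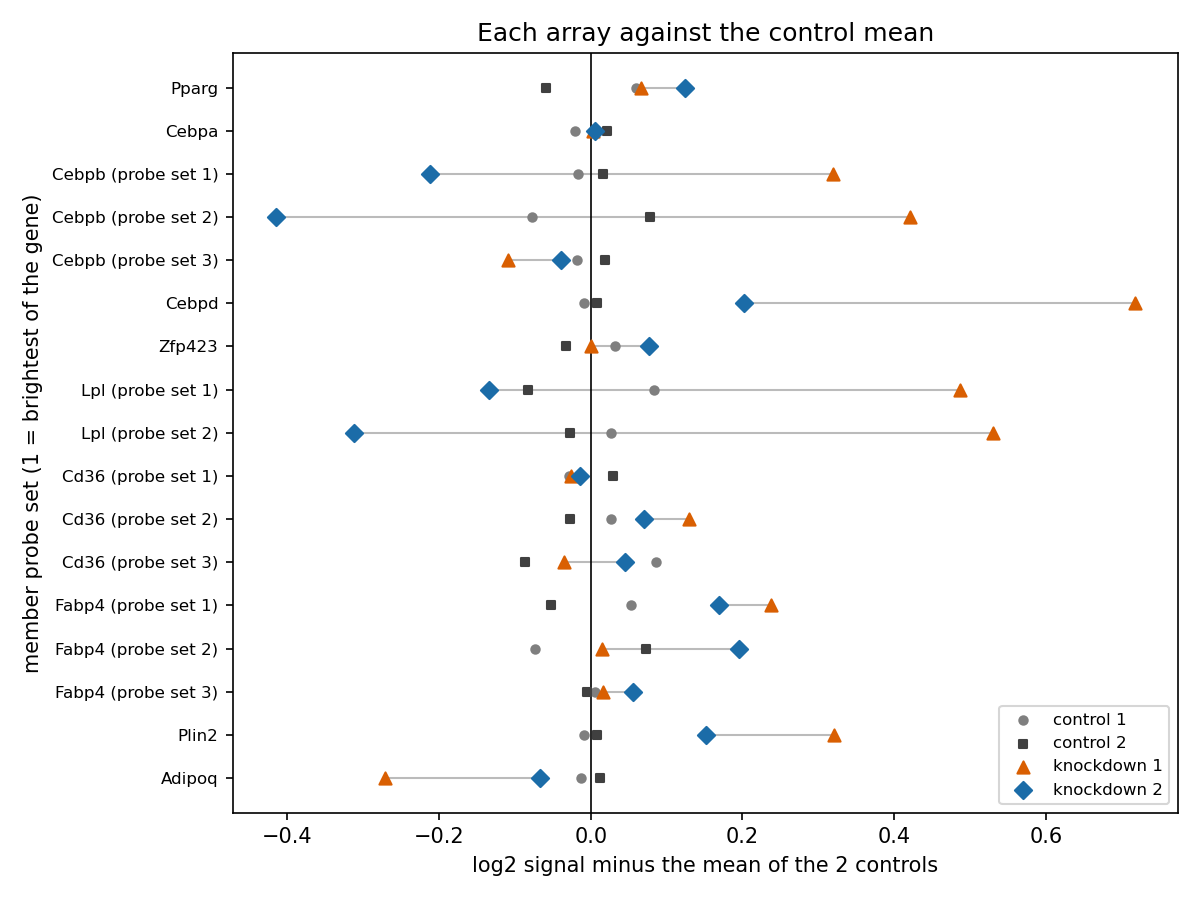
Each array's log2 signal minus the mean of the 2 controls (horizontal axis) for the 17 probe sets, with probe sets of 1 gene numbered from the brightest. Circles and squares are the controls, triangles knockdown 1 and diamonds knockdown 2, joined by a line. For the 2 brighter probe sets of Cebpb and both of Lpl, knockdown 1 lies to the right of the controls and knockdown 2 to the left, while for Cebpd and Plin2 both lie to the right.

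Among the early factors, Cebpd had the largest difference of the 10 genes. Controls gave a log2 signal of 6.26 and 6.28, knockdown 1 gave 6.99 and knockdown 2 gave 6.47. Both knockdown arrays lay above both controls, which differed from each other by 0.02, and knockdown 1 lay far above knockdown 2. Knockdown exceeded control by 0.46 on average (SE 0.16, 95% confidence interval 0.09 to 0.82), or 1.37-fold, with an unadjusted p of 0.0203 and an adjusted p of 0.638 in limma. Against the control mean, knockdown 1 was 1.64-fold and knockdown 2 was 1.15-fold higher.

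Cebpb, the other early factor, had knockdown arrays on opposite sides of the controls. In its brightest probe set the controls were at 8.29 and 8.32, knockdown 1 at 8.63 and knockdown 2 at 8.10. A second probe set showed the same order, with 6.12 and 6.28 against 6.62 and 5.78. In both, the knockdown arrays were further apart (0.53 and 0.84) than the controls (0.03 and 0.16). The mean differences were therefore small, 0.05 (SE 0.15, 95% confidence interval -0.30 to 0.41) and 0.0027 (SE 0.24), with limma adjusted p-values of 0.953 and 0.998. The dimmest of the 3 probe sets did not show this order and read 4.73 and 4.77 against 4.64 and 4.71. The cytokine gene Il6, named after its values were seen because C/EBPβ is also known as NF-IL6, was at 5.40 and 5.30 in control arrays, 7.03 in knockdown 1 and 5.34 in knockdown 2. Il6 was high in knockdown 1 alone, whereas in knockdown 2 Cebpb lay below the controls by its 2 brighter probe sets and Cebpd above them. The part of Il6 in the Cebpb and Cebpd values was not tested.

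The signals of the central and late factors, and of the commitment factor gene Zfp423, stayed near control levels. Pparg, the master regulator of fat cell differentiation, gave 5.08 and 4.96 for the controls, 5.09 for knockdown 1 and 5.15 for knockdown 2. Both knockdown arrays lay above both controls, yet knockdown 1 exceeded control 1 by less than the controls differed from each other (0.12). The difference was 0.10 (SE 0.09, 95% confidence interval -0.11 to 0.31, limma adjusted p = 0.843). Cebpa, its partner in the mature fat cell, read 4.20 and 4.25 against 4.23 and 4.23, so that the knockdown values lay between those of the controls. Its difference was 0.0043, with a 95% confidence interval of -0.18 to 0.19. Zfp423, the zinc finger factor of preadipocyte commitment, read 3.46 and 3.40 against 3.43 and 3.51, with overlapping groups and a difference of 0.04 (95% confidence interval -0.14 to 0.21). At the level of Zfp423 array signal can understate a fold change, so these intervals bound the signal and not the RNA.

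Of the lipid uptake genes, Lpl followed the order of Cebpb. Lpl encodes lipoprotein lipase, which releases fatty acids from circulating triglyceride. The brightest probe set gave 6.94 and 6.77 for the controls, 7.34 for knockdown 1 and 6.72 for knockdown 2. The other read 5.22 and 5.17 against 5.72 and 4.88. Knockdown 1 was the highest array in both, 1.40-fold and 1.44-fold above the control mean. Knockdown 2 was the lowest in both, 1.10-fold and 1.24-fold below it. In the brightest probe set, knockdown 2 lay below control 2 by less than the controls differed from each other (0.17). The mean differences were 0.18 (SE 0.18, 95% confidence interval -0.25 to 0.61, limma adjusted p = 0.862) and 0.11 (SE 0.24). Cd36, a fatty acid receptor and transporter, was dim in all 3 of its probe sets. The brightest read 3.21 and 3.27 against 3.22 and 3.23, a difference of -0.02 (95% confidence interval -0.18 to 0.14), and the other 2 differed by 0.10 and 0.0049.

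The lipid storage genes were both slightly higher in knockdown by brightest probe set, from very different signal levels, that of Fabp4 being near background. Plin2, which encodes the droplet coat protein perilipin 2, gave 8.88 and 8.90 for the controls, 9.21 for knockdown 1 and 9.04 for knockdown 2. Both knockdown arrays lay above both controls, which differed by 0.02. Its average was 0.24 above control (SE 0.07, 95% confidence interval 0.08 to 0.39), or 1.18-fold, with an unadjusted p of 0.00919 and an adjusted p of 0.574 in limma, the lowest of the 17 probe sets. Fabp4, the fatty acid binding protein of fat cells, read 3.12 and 3.01 against 3.30 and 3.23 in its brightest probe set. These groups did not overlap, and the difference was 0.20 (SE 0.07, 95% confidence interval 0.03 to 0.38, unadjusted p = 0.0269, limma adjusted p = 0.648). The other Fabp4 probe sets, dimmer still, differed by 0.11 with overlapping groups and by 0.04 without overlap.

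Adipoq, the gene of the fat-specific hormone adiponectin, was the single gene with both knockdown arrays below both controls in its brightest probe set. Controls were at 3.34 and 3.36, knockdown 1 at 3.08 and knockdown 2 at 3.28. The difference was -0.17 (SE 0.09, 95% confidence interval -0.37 to 0.03, limma adjusted p = 0.715), and most of it lay in knockdown 1 (-0.27, against -0.07 in knockdown 2).

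With the knockdown arrays taken singly against both controls, limma called 7 of the 17 probe sets for knockdown 1 (without knockdown 2) and 3 for knockdown 2 (without knockdown 1). These fits called 12.8% and 3.71% of all probe sets, and each assumes that the lone knockdown array varies like the controls, so they compare 1 library with the controls and not the conditions. In knockdown 1 the higher ones were 2 probe sets of Cebpb, both of Lpl, and those of Cebpd and Plin2, and Adipoq was lower. In knockdown 2 the same 2 probe sets of Cebpb were lower (-0.21, adjusted p = 0.0102, and -0.41, adjusted p = 0.0022) and Plin2 was higher (0.15, adjusted p = 0.0291). Plin2 was thus higher in both fits, and the 2 brighter probe sets of Cebpb had opposite directions. Both fits share the same 2 controls, so they are not independent. Cebpd was called in knockdown 1 (0.72, adjusted p = 2.29e-09) and not in knockdown 2 (0.20, adjusted p = 0.197), and Lpl likewise (0.49, adjusted p = 3.19e-06, against -0.13, adjusted p = 0.461, for its brightest probe set). Whether the 2 arrays differ beyond replicate spread was not tested, as each is a single library.

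The genes whose 4 values lay closest to those of Cebpd, each taken relative to its own control mean, were Cited2, Scara5 and Clu. They were picked from 10529 genes at or above the median signal by Euclidean distance over 4 arrays, which was 0.018, 0.029 and 0.033 on the log2 scale. Cited2, which encodes a transcriptional coregulator, read 7.94 and 7.95 against 8.68 and 8.14. Scara5, a scavenger receptor gene, read 6.26 and 6.29 against 7.02 and 6.46, and its other probe set differed in the opposite direction, and the clusterin gene Clu read 5.94 and 5.98 against 6.70 and 6.14. None of these passed over all probe sets.

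Other genes known to promote adipocyte differentiation lay on both sides of the controls. Of 30 listed, 27 were measured, and 0 passed over all probe sets. With an unadjusted p under 0.05 in limma there were 3 higher and 5 lower genes, while over all genes, by brightest probe set, 4.4% were higher and 2.56% lower. The median difference was -0.05, and that of all genes was 0.0067. The higher ones were Nfib, Ncoa1 and the dim Klf15, and the lower ones included Klf4 and Creb1, all 5 named after their values were seen. The 3 with the smallest p at or above the median signal were lower. Egr2 (Krox20), a factor that precedes the C/EBPs in fat cell culture, had controls at 4.50 and 4.52 against 4.10 and 4.11. Klf9, a Krüppel-like factor, read 8.62 and 8.54 against 8.27 and 8.27. Both differed alike in the 2 knockdown arrays. Ebf1, an early B cell factor that acts in adipogenesis, read 4.86 and 4.73 against 4.01 and 4.50. The log2 differences were -0.41, -0.31 and -0.54, with limma adjusted p-values of 0.415, 0.430 and 0.580. With the mean of its 3 probe sets Ebf1 differed by -0.24. The 2 brightest of the list were close to control, the insulin receptor substrate gene Irs1 (-0.05) and Bmp4 (0.05), the latter at 9.99 and 10.00 against 10.22 and 9.87.

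Genes known to restrain adipocyte differentiation had a median difference of -0.0042 over 28 measured of 31 listed. None passed over all probe sets, and an unadjusted p under 0.05 in limma was found for 2 higher genes (Wnt5a and the dim Gata3, the latter named after its values were seen) and 1 lower gene (Trib3). By brightest probe set, 4.4% of all genes were higher and 2.56% lower at that p. Wnt5a, a secreted Wnt ligand, had controls at 7.60 and 7.59, knockdown 1 at 8.02 and knockdown 2 at 8.24, a difference of 0.53 (SE 0.09, adjusted p = 0.414). The pseudokinase gene Trib3 read 6.62 and 6.79 against 6.55 and 6.31, a difference of -0.27. The brightest members, β-catenin (Ctnnb1) and Id3, differed by -0.07 and -0.11. Klf2, a repressor of Pparg named after its values were seen, read 6.76 and 6.66 against 5.39 and 6.65, so that its lower signal lay almost wholly in knockdown 1.

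As a set, lipid droplet and lipolysis genes beyond Plin2 were close to control. G0s2, named after its values were seen, had knockdown arrays on opposite sides of the controls. It read 4.75 and 4.88 in the controls, 4.50 in knockdown 1 and 5.23 in knockdown 2. Of 25 listed, 22 were measured, the median was 0.01, and at an unadjusted p under 0.05 there was 1 higher gene, the dim glycerol phosphate dehydrogenase gene Gpd1, named after its values were seen, and 0 lower. The brightest were the acyltransferase gene Gpam (0.01) and the lipin gene Lpin2 (0.11, with 1 of 3 probe sets of opposite sign). Of 18 fatty acid uptake genes measured of 20 listed, 2 were higher (Fabp5 and Angptl4) and 1 was lower (Fabp3) at that p, with a median of 0.04. For both lists the comparison is with all genes by brightest probe set, of which 4.4% were higher and 2.56% lower at that p. The epidermal fatty acid binding protein gene Fabp5 had controls at 9.56 and 9.54, knockdown 1 at 10.14 and knockdown 2 at 9.65, high in knockdown 1 as Lpl was. Angptl4, which encodes an inhibitor of lipoprotein lipase, read 4.91 and 5.01 against 5.12 and 5.43, higher in knockdown 2 than in knockdown 1, and its difference of 0.31 was 0.17 with the mean of its 2 probe sets. The heart-type binding protein gene Fabp3 read 7.57 and 7.36 against 6.89 and 7.29, in the other direction from Fabp5 and Fabp4. The bright Got2, also the plasma membrane fatty acid binding protein, differed by 0.01. None of these passed over all probe sets in limma.

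Among adipokines and mature fat cell markers, 15 of 21 listed were measured, with a median of 0.01, and by an unadjusted p under 0.05 there were 0 higher genes and 1 lower. The lower one was the desaturase gene Scd1 (-0.10), and fatty acid synthase (Fasn) differed by 0.0031. Among all genes, by brightest probe set, 4.4% were higher and 2.56% lower at that p. Surface markers of adipocyte progenitors had a median of -0.02 over 13 measured of 14 listed, with 2 higher and 0 lower. Those 2 were the sialomucin gene Cd34, at 4.54 and 4.57 against 5.53 and 5.28, and Cd24a, which encodes the signalling glycoprotein CD24, at 9.78 and 9.78 against 10.43 and 10.13. Their log2 differences were 0.85 (SE 0.11) and 0.49 (SE 0.09), with limma adjusted p-values of 0.284 and 0.415. The brightest marker, the tetraspanin gene Cd9, was lower in knockdown 1 (10.81) and at the control level in knockdown 2 (11.12). None of these lists held a member that passed over all probe sets.

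**Figure D3:**
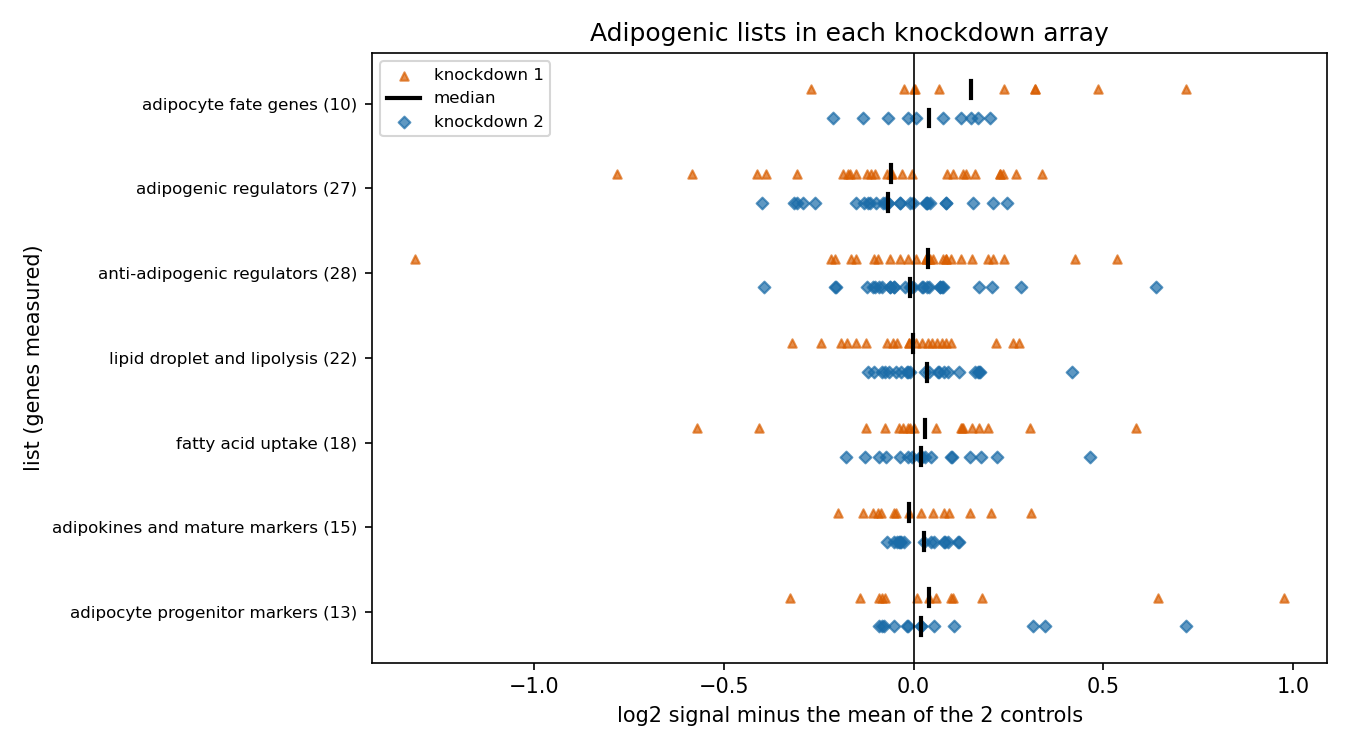
Log2 signal minus the mean of the 2 controls (horizontal axis) for each gene of 7 lists, by brightest probe set, with triangles for knockdown 1, diamonds for knockdown 2 and a bar at each array's median. The adipocyte fate genes have their median at 0.15 for knockdown 1 and at 0.04 for knockdown 2, and the other lists have medians between -0.07 and 0.04.

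The mean signals of the osteoblast and chondrocyte marker lists were lowest in knockdown 1. Of 6 osteoblast markers measured of 9 listed, 4 had an unadjusted p under 0.05 in limma, all lower. These were Ibsp, Col1a1, Sp7 and, named after its values were seen, Dmp1. By brightest probe set, 4.4% of all genes were higher and 2.56% lower at that p. The mean log2 signal of the 6 was 7.40 and 7.38 in the controls against 6.47 in knockdown 1 and 7.07 in knockdown 2. Ibsp had the largest difference of the list, with 10.15 and 10.15 in the controls, 7.02 in knockdown 1 and 9.01 in knockdown 2. Phex, also an osteoblast marker and named after its values were seen, was high in knockdown 1 (5.69, against 4.84 and 4.82 in the controls and 4.61 in knockdown 2). Chondrocyte markers averaged 5.63 and 5.60 against 5.32 and 5.64 over 12 genes, with 1 higher (Col11a1) and 2 lower (Col11a2 and Hapln1) at that p. In knockdown 1, 5 of the 12 were over 1.2-fold below the control mean and 0 above, against 641 and 1239 of all 17097 genes. Col2a1 read 9.01 and 9.08 against 8.23 and 9.17. Sox9, named after its values were seen, was level at 7.52 and 7.47 against 7.50 and 7.49. Col1a1 and Col11a1 differed more from the controls in knockdown 2 than in knockdown 1. Knockdown 1 was the array in which the means of both lists were lowest and Cebpb, Cebpd, Lpl and Plin2 highest, and the relation between them was not tested. Macrophage markers averaged 3.66 and 3.64 in the controls against 3.64 and 3.69, endothelial markers 3.62 and 3.65 against 3.63 and 3.67, and skeletal muscle markers 3.86 and 3.83 against 3.83 and 3.86. For each of these 3 lists the knockdown and control averages overlapped.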

How the data were processed

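Signals were read from an Affymetrix mouse expression array. Per the submitters' processing notes, the authors used RMA, which makes the arrays' probe distributions alike and compresses the change of dim genes. Its software and the build are not given in the labels. The deposited numbers run from 2.17 to 12.72, from which they were taken to be log2 signals.

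Of 45141 probe sets, 104 array controls were left out. By a platform annotation that can be old, 28898 carried 1 gene symbol, covering 17097 genes, and symbols needed no update. List members that this annotation does not name were not analysed here. Groups and replicate numbers came from the titles.

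Knockdown was compared with control over the 45037 probe sets with limma (version 3.58.1, R version 4.3.3), using lmFit and then eBayes with its trend option, 2 residual degrees of freedom, two-sided p-values, Benjamini-Hochberg adjustment and no filter. The step was tested on simulated data with equal spread in both groups. In the data here the knockdown arrays differed more from each other than the controls did. Lists are described by each gene's brightest probe set. Named were all 10 genes, from each list those that passed, up to 3 with the smallest unadjusted p under 0.05 (no overlap of groups, at or above the median signal) and the 2 brightest, the 3 genes most like the member with the largest difference, and Chadl. Chondrocyte, osteoblast, macrophage, endothelial and muscle markers are given mainly as lists. The genes and lists were chosen with earlier results of these data known. Alternatives were quantile normalization, median centring, a filter at the 40th percentile, 1 probe set or the mean of probe sets per gene, eBayes without trend or robust, a replicate block, an adjusted p of 0.1, and leaving out each array.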

Additional observations from a re-analysis of the deposited data

How the results depend on the processing

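The number of probe sets called over the whole array, 1, was 1 with quantile normalization, median centring and the 40th percentile filter, 0 with 1 probe set per gene, with the mean of probe sets or without the trend, 3 with robust eBayes or an adjusted p of 0.1, and 2 with the replicate block. The labels do not say whether arrays of equal replicate number share anything. Their deviations had a correlation of 0.012, which cannot settle this. The block called none of the 17 adipocyte probe sets. Leaving out 1 array gave 0 to 5749 calls over the array, 0 to 7 among the 17, 0 to 8 of the 17 at an unadjusted p of 0.05, and a median difference of 0.045 to 0.071. The highest counts came without knockdown 2 and the highest median without control 1, and leaving out either control gave 0 calls. The median difference was 0.10 over the 9 probe sets above the filter and 0.075 with 1 probe set per gene, where fewer probe sets enter. With the mean of probe sets, Cebpb (-0.0056) and Cd36 (0.028) changed sign, since all 3 probe sets of each then weigh alike, those of Cd36 all being dim. That setting also moved Fabp4 to 0.11, Lpin2 to 0.03, Ctnnb1 to -0.16, Gpam to 0.12 and Scara5 to 0.17. Leaving out 1 array turned the sign of 9 of the genes followed through these settings. Their log2 differences ranged from -0.017 to 0.025 for Cebpa, -0.21 to 0.32 for Cebpb, -0.13 to 0.49 for Lpl and -0.049 to 0.0088 for Cd36. The ranges were -0.12 to 0.23 for Bmp4, -0.17 to 0.022 for Ctnnb1, -0.075 to 0.097 for Gpam, -0.044 to 0.050 for Fasn and -0.012 to 1.67 for Il6. Markers of other cell types and most genes named after their values were seen were not followed. Among these, G0s2, Phex and Col2a1 had knockdown arrays on opposite sides of the controls, so their sign also depends on the knockdown array left out. Pparg, Cebpd, Zfp423, Fabp4, Plin2 and Adipoq kept their sign in every setting in which they were fitted. Signal near background limits Zfp423, Cd36, Fabp4 and Adipoq.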
